A study of Mus musculus with 6 samples.

Results

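The genes described here encode the subunits of the proteasome, its activators and inhibitor, and the chaperones that assemble it. They were taken by symbol, as every gene of the count table named Psm followed by a letter from a to g and a digit, which gave 50 of the 21841 genes listed. The 50 divide into 8 core alpha genes (Psma), 11 core beta genes (Psmb), 7 ATPase genes (Psmc), 14 non-ATPase genes (Psmd), 5 activator genes (Psme), 1 inhibitor gene (Psmf) and 4 assembly genes (Psmg). The grouping follows the symbol, although Psmd5, Psmd9 and Psmd10 encode assembly chaperones, and Psmc3ip encodes a cofactor of meiotic recombination and no proteasome protein.

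Perivascular tumor-associated macrophages (PvTAMs) lie along blood vessels of the tumor and carry the surface receptors LYVE-1 and CD206. They were sorted by FACS from mammary tumors of MMTV-PyMT mice (FVB/N-Tg(MMTV-PyVT)634Mul/J, labelled WT), in which a mammary tumor virus promoter drives the polyoma middle T oncoprotein in mammary epithelium, and were profiled by bulk RNAseq, with 5000 cells sorted for each condition according to the labels. The Vehicle group held 3 mice given vehicle by intraperitoneal injection, and the KCL-HO-1i group held 3 mice given the heme oxygenase inhibitor KCL-HO-1i by the same route at 25 µmol/kg/day, both over 36 h. All 6 mice carried the tumor transgene, their ages are not given in the sources used here, and the comparison asks how the macrophages' transcripts differ with the inhibitor.

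The proteasome degrades proteins that have been tagged with ubiquitin. Its barrel-shaped core is built of rings of alpha subunits, which gate the entrance, and rings of beta subunits, some of which cut peptide bonds; a regulatory cap of ATPase and non-ATPase subunits binds tagged proteins, unfolds them and feeds them into the core. In macrophages and other immune cells, interferon can replace the catalytic beta subunits with the inducible subunits Psmb8, Psmb9 and Psmb10, forming the immunoproteasome, which makes peptides suited to presentation on MHC class I.

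The libraries were shallow and differed in composition. Rounded estimated counts came to 206683, 215637 and 338205 per Vehicle library (replicates 1, 2 and 3, in this order throughout) and to 207813, 319727 and 535214 per KCL-HO-1i library (likewise). Marker genes of macrophages in general (15 genes, Lyz2 the most abundant) took 0.133%, 0.0348% and 0.0343% of the Vehicle counts and 0.417%, 0.551% and 0.324% of the KCL-HO-1i counts, so the groups did not overlap. Of these 15 markers, 6 were above every Vehicle library in every treated one (Lyz2, Adgre1, Csf1r, Tyrobp, Ctss and Laptm5) and 9 overlapped; Cd68, Cx3cr1, Spi1 and Fcgr1 had a lower mean with KCL-HO-1i, and Mertk had no count in any Vehicle library. Lyz2 alone made up 12.0% to 46.2% of the marker counts of a library. The genes of the sorting markers were present in most libraries: Lyve1 had 22, 8 and 12 counts (Vehicle) against 8, 38 and 36 (KCL-HO-1i), and Mrc1, which encodes CD206, had 12, 0 and 3 against 31, 31 and 104. The 10 PvTAM markers, led by F13a1, together took 0.0784%, 0.0241% and 0.0399% of the Vehicle counts and 0.278%, 0.312% and 0.244% of the KCL-HO-1i counts. Of the 10, 6 were above every Vehicle library in every treated one, and Lyve1, Cd163, Stab1 and Maf overlapped. The 6 include Hmox1, the gene of the inhibited enzyme, with 3, 0 and 11 counts (Vehicle) against 148, 316 and 293 (KCL-HO-1i). The paper reports higher Hmox1 expression in these cells with the inhibitor.

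Markers of other cells also differed between the groups. Mammary epithelial markers (10 genes, Csn3 the most abundant) took 0.0314%, 0.00974% and 0.0160% (Vehicle) against 0.168%, 0.0350% and 0.0426% (KCL-HO-1i), and 2 of them, Csn2 and Wap, had no count with Vehicle. The difference lay in the milk protein genes Csn2, Csn3 and Wap: the other 7 epithelial markers took 0.0126%, 0.00927% and 0.0106% (Vehicle) against 0.0197%, 0.0103% and 0.00168% (KCL-HO-1i), with overlap, and Cdh1 was lower in every treated library (5, 12 and 13 counts against 0, 3 and 0). Endothelial markers (8 genes, Prox1 the most abundant) took 0.0387%, 0.0241% and 0.0420% (Vehicle) against 0.00674%, 0.0213% and 0.00916% (KCL-HO-1i). Fibroblast markers (7 genes, Pdgfra the most abundant) took 0.0264% to 0.0271% with Vehicle and 0.00722% to 0.00953% with KCL-HO-1i, and Col3a1 had no count with Vehicle. T and NK cell markers (7 genes, Cd8a the most abundant) took 0.0126%, 0.0153% and 0.0121% (Vehicle) against 0.00962%, 0.00782% and 0.00299% (KCL-HO-1i), so that these, the endothelial and the fibroblast markers were lower in every treated library. B cell markers (4 genes, Ms4a1) stayed at or under 0.00774% of any library and neutrophil markers (5 genes, Mmp8) at or under 0.0110%, while erythroid markers (5 genes, Hba-a1) reached 0.0525% in KCL-HO-1i replicate 2. Olfactory and vomeronasal receptor genes took 6.37%, 5.97% and 6.39% of the Vehicle counts and 4.14%, 3.24% and 2.19% of the KCL-HO-1i counts. Mitochondrially encoded genes took 3.77%, 1.17% and 1.52% (Vehicle) against 9.68%, 2.45% and 41.8% (KCL-HO-1i). The part of these differences in the proteasome results was not tested, and in bulk samples fewer cells of a type and less RNA per cell cannot be told apart. Every Vehicle animal has a code prefix absent from the treated animals, and any batch tied to that prefix cannot be told apart from KCL-HO-1i itself.

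Proteasome genes took a larger share of the transcripts in every mouse given KCL-HO-1i than in every Vehicle mouse, when counted against all genes. They held 253, 187 and 302 counts in the Vehicle libraries, which is 0.122% (95% Wilson interval 0.108% to 0.138%), 0.0867% (0.0752% to 0.1001%) and 0.0893% (0.0798% to 0.0999%) of the totals. With KCL-HO-1i they held 479, 901 and 1020 counts, which is 0.230% (0.211% to 0.252%), 0.282% (0.264% to 0.301%) and 0.191% (0.179% to 0.203%). The mean share was 0.0995% ± 0.0199 (Vehicle) against 0.234% ± 0.0457 (KCL-HO-1i) of the counts (SD, n = 3 each), 2.36 times as high. Counted against the general macrophage markers, the order was the opposite. For each count on those markers there were 0.923, 2.49 and 2.603 proteasome counts (Vehicle) against 0.552, 0.511 and 0.589 (KCL-HO-1i), again without overlap between the groups. With Lyz2 left out of the markers, a choice made after the data were seen, these were 1.59, 2.83 and 3.64 (Vehicle) against 0.892, 0.950 and 1.07 (KCL-HO-1i), in the same order. Per count on the full marker set, 42.7% of all genes listed, taken singly, were lower in every treated library. The Wilson intervals treat every read as an independent count and leave out the spread between mice. The counts carry no molecular identifiers, so amplified copies of a molecule cannot be told apart.

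**Figure D1:**
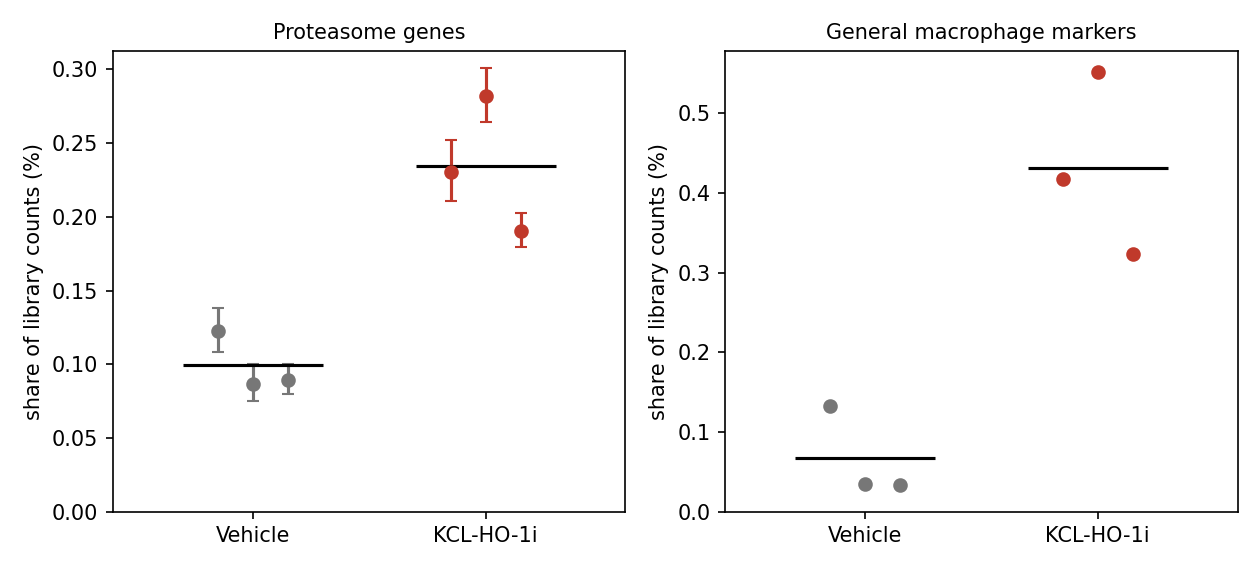
Share of each library's counts, in percent, on the 50 proteasome genes (left, bars are 95% Wilson intervals) and on 15 general macrophage markers (right), with each point a mouse and each line a group mean. The proteasome share lies between 0.0867% and 0.122% in the Vehicle libraries and between 0.191% and 0.282% in the KCL-HO-1i libraries, while per count on the macrophage markers the order of the groups is the opposite.

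The members differed in how often they were seen. At least 1 count was present for 35, 27 and 35 of the 50 with Vehicle and for 26, 43 and 36 in the KCL-HO-1i libraries, so the number of members detected overlapped between the groups. Psmd1, which encodes the largest scaffold subunit of the cap, had no count in any of the 6 libraries, where a count of 0 allows up to 0.000561% of the deepest library and up to 0.00145% of the shallowest. The filter on low counts, which asked for about 37.4 CPM (counts scaled to a common library size) in at least 3 libraries, kept 16 of the 50 and left 34 untested.

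Among the 16 tested, 13 had a higher and 3 a lower level with KCL-HO-1i, and the median log2 fold change was 1.67, against -0.52 over the 7263 genes tested, of which 32.6% were higher. Of the 16, 5 (Psma1, Psma5, Psmc1, Psmd2 and Psme2) had passed the filter through the KCL-HO-1i libraries alone, so that a higher level was required of them, and of the other 11, 8 were higher and 3 lower, with a median of 0.75. The distance between the medians, 2.19, was 2.34 with the libraries scaled to the general macrophage markers, although under that scaling the median of the members was -1.61, that of all genes was -3.95, and 11 of the 16 were lower. A common scaling moves all genes by about the same amount, so that the distance is nearly fixed by construction. In edgeR's quasi-likelihood test, 0 members had an adjusted p-value under 0.05 with an absolute log2 fold change above 0.6, as did 0% of all genes tested, and the smallest adjusted p-value of a member was 0.218. At an unadjusted p-value under 0.05 in edgeR, 6 members were higher (Psmc1, Psme2, Psma1, Psmd2, Psma5 and Psma2) beside 5.01% of all genes tested, and 0 were lower beside 3.06%. All of these 6 but Psma2 had passed through the KCL-HO-1i libraries alone, and the count is given as a description.

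Without the filter, 49 members could be fitted, 35 higher and 14 lower with KCL-HO-1i. Their median was 1.46, or 1.12 with members at or near 0 in a group set to their bound, and that of 19518 genes was -0.52. At an unadjusted p-value under 0.05 in edgeR without the filter, 14 members were higher beside 3.88% of all genes, and 0 were lower beside 3.79%. In this fit 2 members were called higher, Psmc1 and Psmb6, beside 0.359% of all genes. DESeq2 without the count filter called the same 2, beside 0.584% of all genes fitted. Its own filtering left some of the genes fitted, members among them, without an adjusted p-value, so they could not be called. On the filtered genes, DESeq2 called 4 members higher, Psma1, Psmc1, Psmd2 and Psme2, beside 2.26% of all genes, and limma voom with sample quality weights called the same 4, beside 4.03%. All 4 had passed the filter through the KCL-HO-1i libraries alone, so a difference was required of them here too. With the libraries scaled to the macrophage markers, edgeR called 3 members, Psmb11, Psmd8 and Psmf1, all lower, beside 66.1% of all genes called lower.

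Every KCL-HO-1i library was above every Vehicle library, in TMM-normalized CPM, for 8 of the 50 members (Psma1, Psma2, Psma5, Psmb3, Psmb6, Psmc1, Psmd2 and Psme2), beside 3.48% of all genes listed. No member had every KCL-HO-1i library below every Vehicle library, beside 11.7% of all genes listed. Among the 16 tested these counts were 6 and 0, beside 7.88% and 16.1% of the genes tested, but 5 of those 6 had passed the filter through the KCL-HO-1i libraries alone. Leaving out KCL-HO-1i replicate 1, in which 7584 genes were detected against 10781 to 17318 in the other libraries, gave 19 members above in place of 8, beside 9.18% of all genes listed, where groups of 2 and 3 separate more easily. It also gave 12 members higher at an unadjusted edgeR p-value under 0.05, of 27 then tested, beside 6.39% of all genes. Without KCL-HO-1i replicate 2 the latter were 3 of 13, beside 3.64%.

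**Figure D2:**
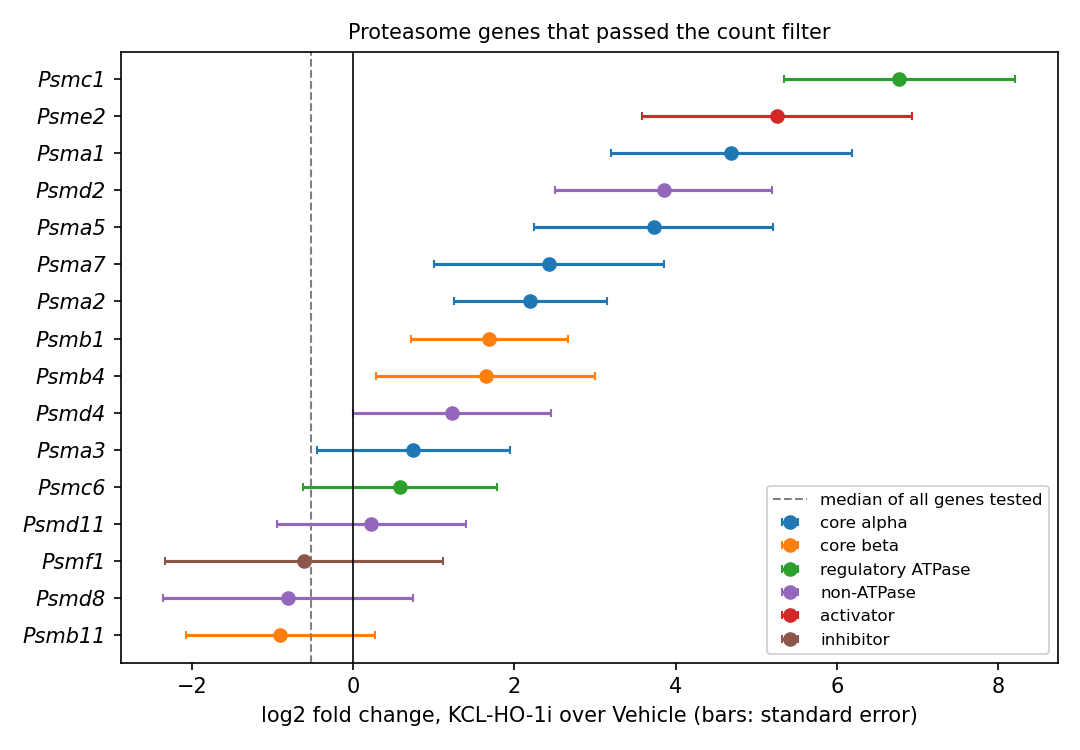
Log2 fold change of KCL-HO-1i over Vehicle (horizontal axis, bars are standard errors from edgeR) for the 16 proteasome genes that passed the count filter, coloured by subgroup, with the median of all genes tested as a dashed line. Values run from -0.90 for Psmb11 to 6.78 for Psmc1, and with the libraries scaled to the macrophage markers 11 of the 16 are below 0.

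The core alpha subunits form the outer rings and the gate of the core. All 5 alpha genes tested were higher with KCL-HO-1i (median log2 fold change 2.43), although Psma1 and Psma5 had passed the filter through those libraries alone. The 8 alpha genes together took 0.0144% ± 0.00610 (Vehicle) against 0.0596% ± 0.0327 (KCL-HO-1i) of the counts (SD, n = 3 each), without overlap. Per count on the macrophage markers the alpha mean was lower with KCL-HO-1i, and the groups overlapped. Scaled to the macrophage markers, Psma2, Psma3 and Psma7 were lower and Psma1 and Psma5 higher. Psma1 had 1, 0 and 1 counts (Vehicle) against 10, 26 and 34 (KCL-HO-1i). Each treated mouse was above each Vehicle mouse, and the pooled counts differed 31.2-fold (95% counting interval 8.33 to 262.9). Its log2 fold change was 4.69 (standard error, SE, 1.497; edgeR adjusted p = 0.334, range over the alternatives 0.0354 to 0.888), and 4.45 to 5.49 with single libraries left out. With the libraries scaled to the macrophage markers the log2 fold change of Psma1 was 1.79. The counting interval here and below pools the counts of the 3 mice of each group and leaves out the spread between mice.

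Psma5 had 0, 0 and 7 counts (Vehicle) against 39, 29 and 20 (KCL-HO-1i), so its Vehicle level rested on replicate 3. Its log2 fold change was 3.73 (SE 1.48; edgeR adjusted p = 0.515), 7.83 without that library, and 0.29 with the libraries scaled to the macrophage markers. Psma2, the alpha gene with the highest mean share, had 5, 5 and 14 counts (Vehicle) against 44, 44 and 27 (KCL-HO-1i). That is 33.9 ± 12.1 CPM against 158 ± 55.0 CPM (SD, n = 3 each), and the groups did not overlap, for which a two-sided exact permutation test gave p = 0.1, the smallest it can give with groups of 3, so that it cannot reach 0.05. The log2 fold change of Psma2 was 2.20 (SE 0.95; edgeR adjusted p = 0.591), and -1.15 with the libraries scaled to the macrophage markers. Psma7 had 0, 10 and 5 counts (Vehicle) against 27, 60 and 4 (KCL-HO-1i), so that 1 treated mouse lay within the Vehicle range; its log2 fold change of 2.43 was 3.92 without Vehicle replicate 2, 1.54 without KCL-HO-1i replicate 2 and -1.31 with the libraries scaled to the macrophage markers. Psma4, which was not tested, ranged from 0 to 3 counts with Vehicle and from 3 to 54 with KCL-HO-1i, Psma3 from 2 to 17 and from 8 to 44, and Psma6 was seen in 1 library of each group. Psma8, an alpha subunit of the testis that replaces Psma7 in germ cells, had 16, 1 and 0 counts (Vehicle) against 0, 11 and 0 (KCL-HO-1i).

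The core beta genes together took 0.0324% ± 0.00711 (Vehicle) against 0.0792% ± 0.0175 (KCL-HO-1i) of the counts (SD, n = 3 each), without overlap. Per count on the macrophage markers the beta mean was lower with KCL-HO-1i, and the groups overlapped. Of the 11 beta genes, 3 passed the filter. Psmb1, a structural beta subunit and the one member above the filter's 37.4 CPM in all 6 libraries, had 10, 16 and 15 counts (Vehicle) against 9, 41 and 114 (KCL-HO-1i). Its level was 63.3 ± 17.0 CPM against 205 ± 187 CPM (SD, n = 3 each), and its log2 fold change was 1.69 (SE 0.97; edgeR adjusted p = 0.767), but 0.92 without KCL-HO-1i replicate 3, 2.49 without KCL-HO-1i replicate 1 and -1.90 with the libraries scaled to the macrophage markers. The groups overlapped, since KCL-HO-1i replicate 1 was below every Vehicle library. Psmb4, another structural subunit, had 28, 0 and 2 counts (Vehicle) against 35, 36 and 56 (KCL-HO-1i), so its Vehicle level came almost whole from replicate 1; its log2 fold change was 1.65, but 5.55 without that library and -0.46 with the libraries scaled to the macrophage markers. Psmb3 was not tested, with 2, 0 and 1 counts (Vehicle) against 54, 16 and 16 (KCL-HO-1i), a pooled ratio of 25.6 (95% counting interval 8.46 to 126.4). Psmb2 had 0, 5 and 7 counts (Vehicle) against 0, 76 and 64 (KCL-HO-1i), with no count in replicate 1 of either group.

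Psmb11 stood apart from the other beta genes. It encodes the catalytic subunit of the thymoproteasome, which is made in epithelial cells of the thymic cortex, yet it was the member with the most counts in 2 of the 3 Vehicle libraries. Its counts were 1, 52 and 72 (Vehicle) against 16, 44 and 8 (KCL-HO-1i). The log2 fold change was -0.90 (SE 1.17; edgeR adjusted p = 0.931), from -1.78 without KCL-HO-1i replicate 2 to -0.22 without Vehicle replicate 2, and the groups overlapped. With the libraries scaled to the macrophage markers Psmb11 was at -4.76 (edgeR adjusted p = 0.0113), where 66.1% of all genes were called lower. Together with Psma8 it made up 6.72%, 28.3% and 23.8% of the proteasome counts (Vehicle) against 3.34%, 6.10% and 0.784% (KCL-HO-1i). Without these 2 tissue-restricted genes the share of proteasome counts was 0.0814% ± 0.0285 (Vehicle) against 0.225% ± 0.0378 (KCL-HO-1i) of the counts (SD, n = 3 each), 2.77 times as high.

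The catalytic subunits come as constitutive and inducible counterparts: Psmb6 and Psmb9 (caspase-like site in the constitutive form), Psmb7 and Psmb10 (trypsin-like site), and Psmb5 and Psmb8 (chymotrypsin-like site). The 3 constitutive genes together had 5, 4 and 8 counts (Vehicle) against 32, 100 and 106 (KCL-HO-1i), or 0.00221% ± 0.000311 against 0.0222% ± 0.00820 of all counts (SD, n = 3 each), without overlap, and per count on the macrophage markers the groups overlapped. The 3 inducible genes together had 4, 2 and 18 counts (Vehicle) against 0, 5 and 0 (KCL-HO-1i), or 0.00273% ± 0.00230 against 0.000521% ± 0.000903 (SD, n = 3 each), with overlap. Per count on the macrophage markers the inducible genes were at 0.0146, 0.0267 and 0.155 (Vehicle) against 0, 0.00284 and 0 (KCL-HO-1i), lower in every treated library. By the same measure 42.7% of all genes listed, taken singly, were lower in every treated library. The constitutive genes thus had more counts than the inducible genes in every KCL-HO-1i library. In the Vehicle libraries they had more in replicates 1 and 2 and fewer in replicate 3. None of the 6 genes passed the filter on low counts.

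Psmb6 had no count in any Vehicle library and was counted 3, 49 and 69 times in the treated ones. Its pooled KCL-HO-1i level was 36.0 times a floor of 3 counts over the whole Vehicle group. Without the filter its adjusted p-value in edgeR was 0.0128 (range over the alternatives that could fit it 0.00547 to 0.809). Psmb7 had 0, 3 and 0 counts (Vehicle) against 29, 22 and 0 (KCL-HO-1i), a pooled ratio of 15.2 (95% counting interval 4.90 to 75.96) with overlapping groups. Psmb5 had 5, 1 and 8 counts (Vehicle) against 0, 29 and 37 (KCL-HO-1i). KCL-HO-1i replicate 1 was thus below all the Vehicle libraries for this gene and replicates 2 and 3 were above them, and the two-sided exact permutation test gave p = 0.4 for Psmb5.

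The inducible subunits were at or near the limit of detection. Psmb8 had 0, 1 and 4 counts (Vehicle) and none in any treated library. Its pooled Vehicle level was 1.87 times a floor of 3 counts over the treated group, a ratio without an interval. Psmb9 had 0, 1 and 2 counts (Vehicle) against 0, 2 and 0 (KCL-HO-1i), too few for a fold change. Psmb10 had 4, 0 and 12 counts (Vehicle) against 0, 3 and 0 (KCL-HO-1i), a pooled level 5.98-fold higher with Vehicle (95% counting interval 1.71 to 32.0). That interval leaves out the spread between mice. In CPM the groups overlapped for each of these 3 genes, and none could be tested in edgeR after the filter. The two-sided exact permutation test gave p = 0.4 for Psmb8 and p = 0.4 for Psmb10.

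**Figure D3:**
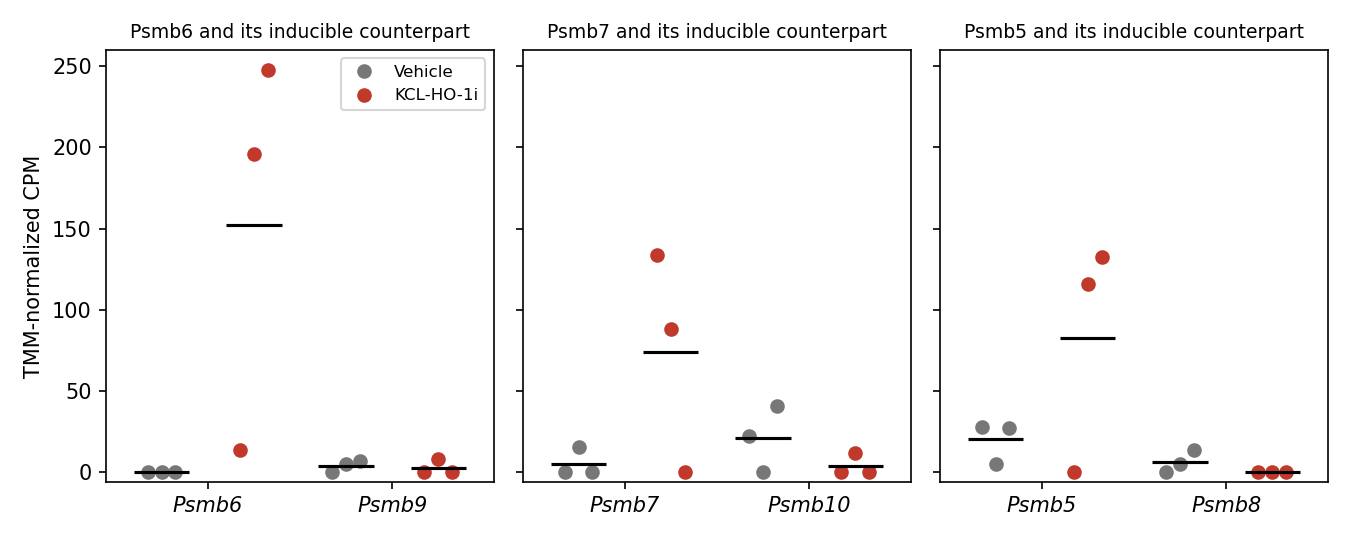
TMM-normalized CPM (vertical axis) of the constitutive catalytic subunits and their inducible counterparts, with each point a mouse and each line a group mean. Psmb6 is at 0 in all 3 Vehicle libraries and at 13.8, 196 and 248 CPM with KCL-HO-1i, while Psmb8 is at 0 in all 3 KCL-HO-1i libraries and Psmb9 stays under 8 CPM throughout.

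The ATPase genes encode the ring of the cap that unfolds the substrate. The 7 genes of this subgroup took 0.00533% ± 0.00595 (Vehicle) against 0.0324% ± 0.00692 (KCL-HO-1i) of the counts (SD, n = 3 each), without overlap, and per count on the macrophage markers the groups overlapped. Psmc1 had 0, 0 and 1 counts (Vehicle) against 33, 18 and 114 (KCL-HO-1i), and each treated mouse was above each Vehicle mouse. The pooled counts differed 147-fold (95% counting interval 26.1 to 5848), an interval set mainly by the single Vehicle count. Its log2 fold change of 6.78 (standard error 1.43) had an adjusted p-value of 0.218 in edgeR, with a range of 0.00176 to 0.748 over the alternatives, and was 8.68 without Vehicle replicate 3, 5.93 without KCL-HO-1i replicate 3 and 3.85 with the libraries scaled to the macrophage markers.

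Psmc6 had about the same counts in each treated mouse and scattered counts with Vehicle: 17, 19 and 23 with KCL-HO-1i against 22, 1 and 9. Its log2 fold change was 0.58 (SE 1.21; edgeR adjusted p = 0.944, and -2.00 with the libraries scaled to the macrophage markers), and it was 2.33 without Vehicle replicate 1 and 0.26 without Vehicle replicate 2. Psmc4 and Psmc5 were present in KCL-HO-1i replicates 2 and 3 alone or nearly so. Psmc4 had 27 counts in each of these 2 libraries and 0 in the other 4. Its pooled KCL-HO-1i level was 16.1 times a floor of 3 counts over the Vehicle group. Psmc5 had 33 and 41 counts in the same 2 libraries against 1 count in Vehicle replicate 1. Psmc2 and Psmc3 reached at most 1 and 5 counts in any library, and Psmc3ip at most 5.

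Most non-ATPase genes encode subunits that build the lid and base of the cap, recognise ubiquitin and remove it from the substrate, while Psmd5, Psmd9 and Psmd10 encode chaperones that assemble the base. The 14 genes together took 0.0304% ± 0.0104 (Vehicle) against 0.0406% ± 0.0162 (KCL-HO-1i) of the counts (SD, n = 3 each), and the groups overlapped, while per count on the macrophage markers they were lower in every treated library (0.0588 to 0.125 against 0.318 to 0.785). By that measure 42.7% of all genes listed, taken singly, were also lower in every treated library. The 4 tested had a median log2 fold change of 0.73, with 3 higher and 1 lower. Psmd2, a scaffold subunit of the base, had 3, 2 and 0 counts (Vehicle) against 22, 33 and 44 (KCL-HO-1i), or 9.03 ± 8.46 CPM against 130 ± 28.3 CPM (SD, n = 3 each). The groups did not overlap, and the log2 fold change was 3.85 (SE 1.34; edgeR adjusted p = 0.419, range over the alternatives 0.0238 to 0.888), and 3.44 to 4.91 with single libraries left out. With the libraries scaled to the macrophage markers the log2 fold change of Psmd2 was 0.99. Psmd4, a ubiquitin receptor, had 12, 10 and 1 counts (Vehicle) against 8, 32 and 33 (KCL-HO-1i). Its groups overlapped, and its log2 fold change of 1.22 (SE 1.23; edgeR adjusted p = 0.917) was 2.08 without Vehicle replicate 1, 0.90 without Vehicle replicate 3 and -1.94 with the libraries scaled to the macrophage markers. Psmd14, the subunit that cuts ubiquitin from the substrate, had 4, 0 and 4 counts (Vehicle) against 0, 5 and 73 (KCL-HO-1i), so its treated level came almost whole from replicate 3. Psmd8 had a log2 fold change of -0.80 (SE 1.55; edgeR adjusted p = 0.938) and of 0.03 without KCL-HO-1i replicate 1. With the libraries scaled to the macrophage markers Psmd8 was at -4.26 (edgeR adjusted p = 0.0244), where 66.1% of all genes were called lower. The other non-ATPase genes, apart from the undetected Psmd1, had between 0 and 18 counts in the Vehicle libraries and between 0 and 26 in the KCL-HO-1i libraries.

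Activators open the gate of the core in place of the cap. The shares of the 5 activator genes overlapped, at 0.00655% ± 0.00290 (Vehicle) against 0.0136% ± 0.00880 (KCL-HO-1i) of the counts (SD, n = 3 each), while per count on the macrophage markers they were lower in every treated library. By that measure 42.7% of all genes listed, taken singly, were also lower in every treated library. Psme1 and Psme2 encode the subunits of the activator PA28 that interferon induces, and they form a ring together. Psme2 had 0, 0 and 1 counts (Vehicle) against 9, 25 and 21 (KCL-HO-1i), and each treated mouse was above each Vehicle mouse. The pooled ratio was 49.1 (95% counting interval 8.45 to 1972), and the log2 fold change was 5.26 (SE 1.68; edgeR adjusted p = 0.333, range over the alternatives 0.0324 to 0.793). With the libraries scaled to the macrophage markers the log2 fold change of Psme2 was 2.23. Its partner Psme1 had 27 counts in KCL-HO-1i replicate 2 and 0 in the other 5 libraries. The pooled KCL-HO-1i level of Psme1 was 8.03 times a floor of 3 counts over the Vehicle group, and rested on that 1 library. Psme2b, a second copy of Psme2 on another chromosome, had the opposite distribution, with 10, 0 and 5 counts (Vehicle) against 1, 0 and 1 (KCL-HO-1i). Since 78.4% of the 31-base words of Psme2b transcripts also occur in other genes, almost all of them in Psme2, reads may have been assigned to either gene. Psme3, the activator of the nucleus, had 3, 2 and 11 counts (Vehicle) against 2, 12 and 2 (KCL-HO-1i), and Psme4, the activator PA200, had 5, 5 and 9 against 0, 10 and 40. Both overlapped between the groups.

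Psmf1, which encodes the inhibitor PI31, had 8, 26 and 7 counts (Vehicle) against 29, 0 and 0 (KCL-HO-1i). Its log2 fold change was -0.61 (SE 1.72; edgeR adjusted p = 0.958), and it was 0.49 without Vehicle replicate 2, -6.89 without KCL-HO-1i replicate 1, which held all its treated counts, and -3.70 with the libraries scaled to the macrophage markers. Of the 4 Psmg assembly chaperones none was tested, and their shares overlapped, at 0.00440% ± 0.00500 (Vehicle) against 0.00416% ± 0.00366 (KCL-HO-1i) of the counts (SD, n = 3 each), while per count on the macrophage markers they were lower in every treated library. By that measure 42.7% of all genes listed, taken singly, were also lower in every treated library. Psmg2 had 10, 4 and 3 counts (Vehicle) against 0, 2 and 12 (KCL-HO-1i). Psmg4 had 5, 0 and 0 against 0, 13 and 5, Psmg3 had 2 counts over the Vehicle group against 20 over the KCL-HO-1i group, and Psmg1, the partner of Psmg2, had 5 counts in Vehicle replicate 1 and none elsewhere.

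Other genes of the pathway were read from gene lists. Of 18 proteasome-associated proteins, 15 were in the table and 9 were tested, 5 higher and 4 lower with KCL-HO-1i, median log2 fold change 0.23, and 2 of them, Sem1 and Zfand5, were higher at an unadjusted p-value under 0.05 in edgeR, beside 5.01% of all genes tested. Sem1, a small subunit of the lid that the symbol rule does not take, had 57, 1 and 19 counts (Vehicle) against 127, 175 and 284 (KCL-HO-1i), more than any of the 50 members in each treated library. The assembly factor Pomp, which matures the core, had 41, 30 and 31 counts (Vehicle) against 8, 47 and 59 (KCL-HO-1i), and its log2 fold change was -0.16 (SE 0.88; edgeR adjusted p = 0.975), with scaling to the macrophage markers -3.52 (edgeR adjusted p = 0.0328, where 66.1% of all genes were called lower). Of 8 regulators of proteasome gene transcription, 7 were tested, 1 higher and 6 lower, with a median of -0.31 and none at an unadjusted p-value under 0.05. Nfe2l1, the factor that raises proteasome genes when the proteasome is inhibited, had 21, 5 and 29 counts (Vehicle) against 4, 38 and 5 (KCL-HO-1i), and its log2 fold change was -0.36 (SE 1.20; edgeR adjusted p = 0.963), and -3.73 under the same scaling (edgeR adjusted p = 0.0393). With single libraries left out, Nfe2l1 ran from -2.14 (without KCL-HO-1i replicate 2) to 0.34 (without KCL-HO-1i replicate 3) and Pomp from -0.38 (without KCL-HO-1i replicate 2) to 0.59 (without KCL-HO-1i replicate 1). Nfe2l2, which encodes NRF2, the activator of antioxidant genes, had 27, 11 and 8 counts, or 78.4 ± 64.5 CPM (Vehicle), against 277.7 ± 144.7 CPM (KCL-HO-1i; SD, n = 3 each), with overlap. Its log2 fold change was 1.83 (SE 0.90; edgeR adjusted p = 0.661), 3.01 without Vehicle replicate 1, 1.58 without KCL-HO-1i replicate 3, and -1.14 with the libraries scaled to the macrophage markers. The protease gene Ddi2, which releases Nfe2l1 from the membrane and was named after its values were seen, had 41, 75 and 94 counts (Vehicle) against 7, 45 and 22 (KCL-HO-1i). Its log2 fold change was -1.68 (SE 0.85, edgeR adjusted p = 0.675). In CPM it was lower in every treated library, as were 16.1% of the genes tested.

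Downstream of the proteasome, 7 of 14 genes of class I peptide processing were tested, 6 higher and 1 lower, with a median of 2.24, and 4 were higher at an unadjusted p-value under 0.05 in edgeR (B2m, Canx, H2-D1 and H2-K1), beside 5.01% of all genes tested. In this list and in the lists above, 0 genes had an adjusted p-value under 0.05 in edgeR. B2m, the invariant chain of class I, had 14, 0 and 0 counts (Vehicle) against 159, 232 and 264 (KCL-HO-1i). The peptide transporter genes Tap1 and Tap2, which lie beside Psmb9 and Psmb8, were each seen in 1 library per group at most: Tap1 had 47 counts in KCL-HO-1i replicate 1 and 0 elsewhere, and Tap2 had 4 counts in Vehicle replicate 3 and 14 in KCL-HO-1i replicate 2. These genes outside the naming rule were named after their values were seen.

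Levels per length gave the order of the members within each group. In CPM per kb of the longest annotated transcript, the highest KCL-HO-1i means were those of Psmb2 (206.96 ± 184), Psmb6 (158 ± 127), Psmb4 (143 ± 24.8), Psmc1 (133 ± 111) and Psmb1 (104 ± 95.04; SD, n = 3 each), and neighbours in this order did not differ beyond their spread. The highest Vehicle means were those of Psmb4 (46.0 ± 74.8), Psmb11 (40.8 ± 34.3) and Psmb1 (32.1 ± 8.63; SD, n = 3 each), again within their spread. The 1471 olfactory and vomeronasal receptor genes with an annotated length served as a reference level. Whether these macrophages express any of them was not tested. In the Vehicle libraries the median member was at 5.12, 2.504 and 5.51 CPM per kb and the median receptor gene at 11.2, 8.22 and 13.4, so the median member was below the median receptor gene in each. In the KCL-HO-1i libraries the median member was at 3.19, 28.2 and 16.7 and the median receptor gene at 0, 5.25 and 0.861. The number of members above the 95th percentile of the receptor genes was 6, 2 and 1 of 50 with Vehicle and 9, 25 and 17 of 50 with KCL-HO-1i. This reference was chosen after the data were seen.

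Transcript length differed between the members and the other genes. The members tested had a median longest transcript of 2052 bases, against 4301 over 7225 genes tested with a length, and 14 of the 16 fell in the shortest of 3 equal length classes (up to 3467 bases). Over all genes the median was -0.18 in the shortest class, -0.56 in the middle class and -0.72 in the longest, and for the members it was 1.95 in the shortest class (14 genes) and -0.76 in the middle class (2 genes). The part of length in the results was not tested.

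In the annotation of GENCODE M21 on GRCm38 all 50 genes are protein coding and lie on 16 chromosomes, and 3 pairs of them lie within 10000 bases of each other. Psmb9 (chr17:34181987-34187764, minus strand) and Psmb8 (chr17:34197721-34201454, plus strand) are 9957 bases apart, and Psmb9 overlaps Tap1. Psme1 (chr14:55578123-55581529, plus strand) and Psme2 (chr14:55587441-55591113, minus strand) are 5912 bases apart, and Psmb5 (chr14:54614119-54618022, minus strand) and Psmb11 (chr14:54621433-54629556, plus strand) are 3411 bases apart. Of these neighbours, Psme1 was seen in 1 treated library and Psme2 in all 3. Psmb11 had more counts than Psmb5 in 4 of the 6 libraries and fewer in Vehicle replicate 1 and KCL-HO-1i replicate 3. Psmb8 had 0, 1 and 4 counts (Vehicle) against 0, 0 and 0 (KCL-HO-1i). Psmb9 had 0, 1 and 2 against 0, 2 and 0, so both were near the limit of detection. Psmc1 lies on chr12:100110154-100123405 (plus strand), Psmb6 on chr11:70525367-70527858 (plus strand), Psma1 on chr7:114264606-114276118 (minus strand), Psma5 on chr3:108256926-108279974 (plus strand), Psma2 on chr13:14613240-14674236 (plus strand) and Psmd2 on chr16:20651652-20663414 (plus strand).

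Several counts are uncertain because of shared sequence. Over 10% of the 31-base words of a gene's transcripts also occur in transcripts of other genes, pseudogenes among them, for 10 of the 50 members, with 71.7% for Psmb5, 58.7% for Psma5, 33.5% for Psme2, 32.2% for Psmc1 and 31.6% for Psmd2. In contrast, Psma1 shared 0.336%, Psmb4 and Psmb2 shared 0%, and Psmb6 shared 6.24%. In addition, 24 of the 50 overlap another annotated gene, 10 of them one on the same strand; the library kit keeps strand, but whether the counting used it is not given in the sources used here.

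Promoters of the members were searched for binding motifs of NRF2 and of the factors that answer interferon. Of the 50 genes, 42 had a RefSeq promoter on GRCm38.p6 (45 promoters, each 250 bases before to 50 bases after a transcription start). The core of the antioxidant response element bound by NRF2 and related factors, TGACNNNGC on either strand, occurred in 6 of the 45 promoters (13.3%), against 12.4% of 32851 promoters of the same length, and the genes were Psmb5, Psmb6, Psmc6, Psmd12, Psmd9 and Psme4. The core of the interferon-stimulated response element, read as GAAA and, after any 2 bases, GAAA again, on either strand, occurred in 5 of the 45 (11.1%) against 3.44%, in the genes Psmb3, Psmd4, Psmd9, Psme1 and Psmg4. A match describes the letters of the window and no binding site. The promoters of the 2 constitutive catalytic genes with a match and of the PA28 gene with a match are shown, 5′ to 3′ on the gene's strand, with the match in capitals. That of Psmb5 is at chr14:54617946-54618245 (minus strand), that of Psmb6 at chr11:70525107-70525406 (plus strand) and that of Psme1 at chr14:55578244-55578543 (plus strand). The matches in Psmb5 and Psmb6 begin 47 and 9 bases before the start, and the match in Psme1 is on the other strand, from base 10 after it.
Psmb5: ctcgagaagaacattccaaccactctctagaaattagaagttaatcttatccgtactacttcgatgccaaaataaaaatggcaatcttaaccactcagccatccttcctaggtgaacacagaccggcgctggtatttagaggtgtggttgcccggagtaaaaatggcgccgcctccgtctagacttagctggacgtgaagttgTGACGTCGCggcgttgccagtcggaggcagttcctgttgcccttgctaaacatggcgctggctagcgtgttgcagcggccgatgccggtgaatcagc
Psmb6: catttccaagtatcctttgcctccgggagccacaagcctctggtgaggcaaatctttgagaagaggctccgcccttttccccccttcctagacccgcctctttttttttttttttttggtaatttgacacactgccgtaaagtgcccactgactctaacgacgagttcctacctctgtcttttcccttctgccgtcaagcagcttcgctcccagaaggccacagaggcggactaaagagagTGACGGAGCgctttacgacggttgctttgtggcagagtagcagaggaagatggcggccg
Psme1: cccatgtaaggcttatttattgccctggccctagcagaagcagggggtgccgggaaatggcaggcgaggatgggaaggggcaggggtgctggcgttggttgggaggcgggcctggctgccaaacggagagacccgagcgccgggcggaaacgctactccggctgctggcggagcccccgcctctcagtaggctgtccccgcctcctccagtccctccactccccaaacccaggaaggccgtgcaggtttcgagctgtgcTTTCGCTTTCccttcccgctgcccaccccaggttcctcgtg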

How the data were processed

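CD206+LYVE-1+ macrophages from 6 mice were profiled by RNAseq. The authors checked reads with FastQC 0.11.9, aligned them with STAR 2.7.9a, quantified transcripts with Salmon 1.9.0, summarized them to genes with tximport, and deposited estimated counts per gene, not scaled to library size. The submitters' processing notes name build mm10. The paper's methods call the table TPM counts, but totals of 206728 to 535224 differ between libraries, as TPM would not. In total 0 columns were left without a sample.

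Here, estimated counts were rounded, filtered with filterByExpr (minimum count 10, minimum total 15), TMM-normalized and tested over all genes in edgeR 4.0.16 (quasi-likelihood F test; R 4.3.3) with Benjamini-Hochberg adjustment, and genes were called at adjusted p under 0.05 and absolute log2 fold change above 0.6. A standard error is the log2 fold change divided by the square root of F. DESeq2 1.42.0 and limma 3.58.1 were alternatives, as were other scalings, filters, each mouse left out and thinned counts, and the fit was tested on simulated data. DESeq2 kept its own default filtering of adjusted p-values, also in the fit said to be without a filter. Single genes were compared by two-sided exact permutation tests. Floors were 3 counts, and a ratio to a floor has no interval. Counting intervals of pooled ratios are binomial and leave out the spread between mice.

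Named genes were the catalytic subunits Psmb5 to Psmb10, all activators and the inhibitor, the 2 members with the highest mean share in 5 subgroups, up to 6 with the smallest p-values, and Pomp, Nfe2l1 and Nfe2l2; others were chosen after their values were seen. The members and lists were chosen with earlier results of these data known. Whole-tumor RNAseq was not used here.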

Additional observations from a re-analysis of the deposited data

How the results depend on the processing

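Calls depended on the tool. edgeR called 0 of 7263 genes, DESeq2 called 236 on the filtered genes and 184 without a filter, and limma voom called 299. With edgeR, 82 were called without the filter, 67 when at least 10 counts were asked of every library, and 4814 with scaling to the macrophage markers (4803 of them lower). Proteasome genes called were 0 in edgeR, 4 in DESeq2, 2 in DESeq2 without a filter, 4 in limma, 2 in edgeR without a filter, and 3, all lower, under macrophage scaling. The filter of at least 10 counts in every library left 0 members to test, so it gave no member median and 0 members at unadjusted p under 0.05.

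The 6 members higher at unadjusted p under 0.05 in edgeR were 13 in DESeq2 without a filter (beside 3.27% of all genes), 14 in edgeR without one (beside 3.88%), 2 of the 8 then tested with counts thinned to the smallest library (beside 5.71% of all genes) and 1 under macrophage scaling (beside 0.193%), where 3 were lower (beside 5284 of 7263 genes). The median of 1.67 was 2.24 in limma and -1.61 under macrophage scaling, where 5 members had all KCL-HO-1i libraries above and 8 had all below, beside 0.421% and 42.7% of all genes listed. By construction that scaling divides by a marker share that is itself higher with KCL-HO-1i; for the other changes the cause was not tested. It also reversed 8 members, Psma2 (-1.15), Psma3 (-2.14), Psma7 (-1.31), Psmb1 (-1.90), Psmb4 (-0.46), Psmc6 (-2.00), Psmd4 (-1.94) and Psmd11 (-2.84), and Nfe2l2 (-1.14). That scaling gave Pomp -3.52 and Nfe2l1 -3.73, both called lower. Pomp was 0.12 in limma and 0.078 without the filter. Without mitochondrial genes the proteasome share was 0.102% (Vehicle) against 0.290% (KCL-HO-1i).

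Leaving out 1 library at a time gave 0 to 74 genes called (74 without Vehicle replicate 1, 0 of them members), 3 to 12 members higher (beside 3.64% to 6.39% of all genes) and 0 to 1 lower (beside 1.48% to 14.4%) at unadjusted p under 0.05 in edgeR, a median of 1.45 to 2.63, 9 to 19 members with all KCL-HO-1i libraries above and 0 to 3 with all below. Full separation is easier with a library fewer: over all genes listed 4.78% to 9.18% were above and 12.7% to 22.1% below. The log2 fold change ran from -6.89 to 0.49 for Psmf1, from -0.38 to 0.59 for Pomp from -2.14 to 0.34 for Nfe2l1 and from 1.58 to 3.01 for Nfe2l2.

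With replicate number as a block, edgeR called 0 genes and left 3 members higher at unadjusted p under 0.05 (beside 4.43% of all genes), with a median of 1.87 for members and -0.92 for all genes. The replicates are different mice, and correlations between libraries of the same number were 0.0106, 0.063 and -0.0262, within the range of the other pairs (-0.0881 to 0.0616) but for 1. Depth limits the untested members: a count of 0 in a library allows up to 0.000561% to 0.00145% of its counts.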
